A study of Mus musculus with 18 samples.

Results

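The genes Cyld and Spata2 were followed through a pooled CRISPR knockout screen of cells exposed to an IgA antibody in the mouse peritoneum. They were chosen by gene name as the 2 partners of 1 deubiquitinase complex, with earlier results of these data known. They are 2 of the 76 genes that the library targets and account for 6 of its 252 sgRNAs, 3 per gene. The screen addressed how knockouts of cell death genes combine with the loss of ITPK1, a kinase of soluble inositol phosphates, in cells attacked through IgA. The cells were Ba/F3, a mouse pro-B cell line that depends on interleukin-3.

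Of each mouse, 2 libraries were read, 1 from ITPK1-KO cells (a pool of 6 clones) and 1 from ITPK1-WT cells. Both pools had received the same sgRNA library and 10 days of culture, were marked with different tracking dyes, and were mixed before 20000000 cells were injected into the peritoneum. All 8 hosts were transgenic for hCD89, the human myeloid receptor for IgA. In the IgA arm 4 mice (mice 5 to 8) received anti-hHer2 IgA, and in the vehicle arm 4 mice (mice 1 to 4) received PBS, as given in the sample legend that the authors deposited. Viable cells were sorted back into their backgrounds after 16 h, and 1 library of each background came from before injection, which makes 18 libraries. Host age was not used here. Each background was 1 transduced pool shared by all mice, so the replicates measure the spread between mice and not between transductions. Genotype, dye and pool cannot be told apart. The libraries hold amplified sgRNA cassettes and give no check of ITPK1 deletion or of editing at either gene.

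CYLD is a deubiquitinase that trims ubiquitin chains from RIPK1 and other proteins of the TNF receptor complex. SPATA2 is the adaptor that joins CYLD to HOIP, the catalytic subunit of the linear ubiquitin chain assembly complex. Cells that lack either protein are known to be less sensitive to RIPK1-dependent death after TNF.

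The sgRNAs are the measured objects, and the results turn on how alike the 3 of a gene behaved, so all are shown. Each has 20 nucleotides, written from 5′ to 3′, and the capitals mark the 10 bases next to the PAM, where Cas9 tolerates mismatches least. Cyld lies on mouse chromosome 8 and Spata2 on mouse chromosome 2 (RefSeq, GRCm38.p6). Target positions were not given in the sources used here.
Cyld-sg-1: agagaaccccCCGTTCTATG
Cyld-sg-2: gttggcaattACCAACTGTG
Cyld-sg-3: gaggacctttATTAGCGGAG
Spata2-sg-1: ccatgaacctTAGAATGGCT
Spata2-sg-2: aaaagtatgtACTACGAAGA
Spata2-sg-3: ccagcaatgaGGGGGATGGG
The GC content ran from 30% in Spata2-sg-2 to 65% in Spata2-sg-3, around a library median of 50%.

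Depth and recovery set the precision of every value. Libraries held 317564 to 808586 reads, of which a member sgRNA had between 520 and 4068 reads. The IgA libraries came from 955000 to 2000000 sorted ITPK1-KO cells and 657000 to 2000000 sorted ITPK1-WT cells, against 2000000 cells in every vehicle library. The 24 non-targeting sgRNAs were listed at 13.4% to 13.5% of reads in IgA and 13.5% to 13.7% in vehicle libraries of ITPK1-KO cells. In ITPK1-WT cells they took 12.8% to 13.2% in IgA and 13.4% to 13.5% in vehicle libraries. No label names a sequencing batch, so the sample sheet was inferred from the sample numbers in the names of the reads. By this, all vehicle libraries and mouse 5 shared a sheet, and mice 6 to 8 shared another with both starting libraries. Most of the IgA arm thus differs from the vehicle arm in inferred sheet as well. In a fit within a background with the sheet as a covariate, the IgA effect rests on mouse 5 alone.

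Before injection, both genes were represented below the non-targeting average. Cyld sgRNAs made up 0.966% of reads in ITPK1-KO cells (95% Wilson interval 0.940 to 0.993) and 0.923% in ITPK1-WT cells (0.899 to 0.949). Spata2 sgRNAs made up 0.603% in ITPK1-KO cells (0.583 to 0.625) and 0.656% in ITPK1-WT cells (0.635 to 0.677). Set against the mean non-targeting sgRNA, Cyld sgRNAs stood at 57.6% in ITPK1-KO and 54.2% in ITPK1-WT cells, and Spata2 sgRNAs at 36.0% in ITPK1-KO and 38.5% in ITPK1-WT cells. Intervals cover counting error only, since amplified reads are not independent molecules. The 24 non-targeting sgRNAs, of 252 in the library, took 13.4% of these reads in ITPK1-KO and 13.6% in ITPK1-WT cells. The average targeting sgRNA was thus below them too, so a level below the non-targeting sgRNAs was not particular to these genes. Whether levels as low as those of Cyld and Spata2 were common among the other genes was not tested. With 1 library per background and no plasmid pool analysed here, the share of the difference that arose in culture was not tested.

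Cyld sgRNAs were enriched under IgA in both backgrounds. The values are CPM, read counts scaled to the library total with TMM factors, with the 3 sgRNAs of a gene summed and each background scaled on its own. In ITPK1-KO cells Cyld had 10128, 10272, 10822 and 10648 CPM in IgA mice 5 to 8, against 9246, 9297, 9137 and 9009 in vehicle mice 1 to 4. In ITPK1-WT cells it had 10543, 10179, 10832 and 10873 in IgA mice 5 to 8, against 9611, 9692, 9880 and 9532 in vehicle mice 1 to 4. In each background the lowest IgA library lay above the highest vehicle library, as it did for 14.5% of all genes in ITPK1-KO and 15.8% in ITPK1-WT cells. The means were 10467 ± 322 under IgA and 9172 ± 128 under vehicle in ITPK1-KO cells (SD, n = 4 each), and 10607 ± 321 under IgA and 9679 ± 149 under vehicle in ITPK1-WT cells.

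The Cyld enrichment was 1.14-fold in ITPK1-KO cells (log2 0.19, SE 0.024, edgeR quasi-likelihood test, adjusted p = 3.34e-06) and 1.09-fold in ITPK1-WT cells (log2 0.13, SE 0.025, adjusted p = 0.000202). From the top of the 76 genes it ranked 3 in ITPK1-KO and 5 in ITPK1-WT cells. Every SE here comes from log2 values per mouse, and every adjusted p is a Benjamini-Hochberg value over all genes or all sgRNAs of the fit. A share of reads is relative, so more cells carrying an sgRNA and fewer cells carrying others cannot be told apart. At a threshold of 0.05 the same test called 13.2% of genes in ITPK1-KO and 36.8% in ITPK1-WT cells, either direction, so a call is common in ITPK1-WT cells.

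Spata2 sgRNAs were enriched under IgA in ITPK1-WT cells and did not pass the test in ITPK1-KO cells. In ITPK1-KO cells Spata2 had 6064, 6027, 6133 and 5880 CPM in IgA mice 5 to 8, against 6087, 5754, 5580 and 5801 in vehicle mice 1 to 4. In ITPK1-WT cells it had 7060, 6899, 7416 and 6989 in IgA mice 5 to 8, against 6497, 6333, 6370 and 6932 in vehicle mice 1 to 4. The arms overlapped in both backgrounds: 1 of 4 IgA libraries lay above the highest vehicle library in ITPK1-KO cells, and 3 of 4 did in ITPK1-WT cells. Averages were 6026 ± 107 under IgA and 5806 ± 210 under vehicle in ITPK1-KO cells, and 7091 ± 226 under IgA and 6533 ± 275 under vehicle in ITPK1-WT cells (SD, n = 4 each).

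The Spata2 change was 1.04-fold in ITPK1-KO cells (log2 0.052, SE 0.029, edgeR adjusted p = 0.267) and 1.08-fold in ITPK1-WT cells (log2 0.12, SE 0.038, adjusted p = 0.0126). It ranked 14 and 6 of 76 from the top in ITPK1-KO and ITPK1-WT cells. The ITPK1-WT call was lost without mouse 7 (log2 0.094, adjusted p = 0.0621), with the sample sheet as a covariate (0.11, adjusted p = 0.210), without Spata2-sg-2 (0.086, adjusted p = 0.146) and without Spata2-sg-3 (0.11, adjusted p = 0.0592). Over all 20 alternatives the adjusted p ran from 0.000744 to 0.210.

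**Figure D1:**
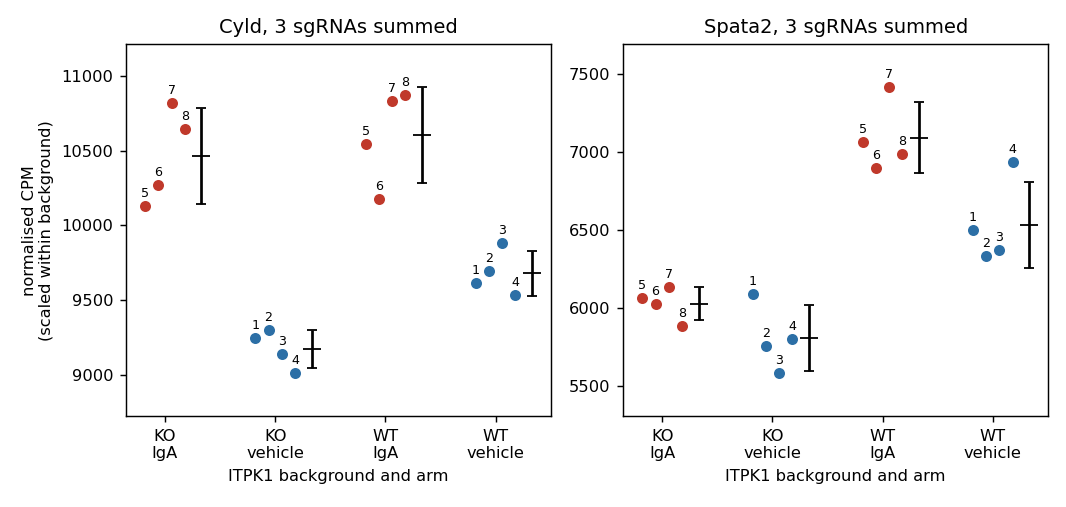
Normalised CPM of Cyld (left) and Spata2 (right), 3 sgRNAs summed and TMM-scaled within each background, by ITPK1 background and arm; points are libraries with their mouse numbers, and bars are mean and SD of 4 (the vertical axes do not start at 0). For Cyld, the IgA libraries lie above every vehicle library of the same background, whereas for Spata2 the arms overlap.

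The inferred sample sheet allows 1 comparison within a sheet, of mouse 5 with the vehicle mice. For Cyld it gave a log2 difference of 0.14 in ITPK1-KO and 0.12 in ITPK1-WT cells, against 0.21 and 0.13 for the other IgA mice. Spata2 gave 0.064 in ITPK1-KO and 0.11 in ITPK1-WT cells, against 0.051 and 0.12. The direction in mouse 5 was thus that of the other IgA mice for both genes, and these differences were not tested apart. Fits within a background with the sheet as a covariate rest on this 1 mouse. Calls kept or lost in them do not settle whether a result depends on the sheet.

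Of the 3 Cyld sgRNAs, Cyld-sg-1 and Cyld-sg-3 passed the test in both backgrounds and Cyld-sg-2 in neither. Cyld-sg-1, the most abundant of them, had 5170, 5322, 5319 and 5392 CPM in ITPK1-KO cells of IgA mice 5 to 8, against 4508, 4606, 4261 and 4307 in vehicle mice 1 to 4. The ITPK1-WT libraries held 5334, 5033, 5483 and 5421 under IgA, against 4839, 4755, 4883 and 4810 under vehicle. The arms did not overlap in either background. Its log2 enrichment was 0.26 in ITPK1-KO cells (SE 0.030, edgeR adjusted p = 2.42e-13) and 0.14 in ITPK1-WT cells (SE 0.029, adjusted p = 0.000452), which placed it 3 of 251 and 27 of 252 from the top.

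Cyld-sg-3 ran from 2912 to 3304 under IgA and from 2774 to 2856 under vehicle in ITPK1-KO cells (log2 0.13, SE 0.041, adjusted p = 0.0383). The ITPK1-WT values ran from 3250 to 3417 under IgA and from 2887 to 3112 under vehicle (log2 0.15, SE 0.029, adjusted p = 0.00572). Here too the arms did not overlap, but the ITPK1-KO call was lost in 8 of 16 alternatives, among them each of mice 1, 2, 3, 4, 7 and 8 left out (0.087 without mouse 7 to 0.13) and the sample sheet as a covariate (0.049, adjusted p = 0.862). Cyld-sg-2 was the exception: its log2 differences of 0.12 in ITPK1-KO cells (SE 0.046, adjusted p = 0.171) and 0.070 in ITPK1-WT cells (SE 0.029, adjusted p = 0.388) did not pass the test, and 3 of 4 IgA libraries lay above the highest vehicle library in each background.

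Of the 3 Spata2 sgRNAs 1 passed the test, Spata2-sg-2 in ITPK1-WT cells. It ran from 1838 to 2065 under IgA and from 1774 to 1923 under vehicle in ITPK1-KO cells (log2 0.10, SE 0.044, edgeR adjusted p = 0.260). In ITPK1-WT cells it ran from 2020 to 2299 under IgA and from 1834 to 2042 under vehicle (log2 0.19, SE 0.053, adjusted p = 0.0124). Spata2-sg-1 had log2 differences of 0.083 (adjusted p = 0.296) in ITPK1-KO and 0.050 (adjusted p = 0.479) in ITPK1-WT cells. Neither value passed.

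Spata2-sg-3 had a negative value in ITPK1-KO and a positive one in ITPK1-WT cells. In ITPK1-KO cells it had 1751, 1645, 1582 and 1462 CPM in IgA mice 5 to 8, against 1692, 1663, 1634 and 1680 in vehicle mice 1 to 4 (log2 -0.050, SE 0.055, adjusted p = 0.667). The ITPK1-WT libraries held 2149, 2192, 2316 and 2164 in IgA mice, against 1883, 1957, 2041 and 2187 in vehicle mice (log2 0.13, SE 0.052, adjusted p = 0.0820). The arms overlapped in both, and neither change passed. The ITPK1-KO sign was not stable: it turned with the sample sheet as a covariate (0.069), and mouse 5, on the sheet of the vehicle mice, had 0.071 against -0.095 for the other IgA mice.

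In all, 2 of 6 member sgRNAs were called in ITPK1-KO cells, where 10.4% of all sgRNAs were, and 3 of 6 in ITPK1-WT cells, where 27.8% were. Arms did not overlap, with IgA above, for Cyld-sg-1 and Cyld-sg-3 in both backgrounds and for no other member. Across the library this held for 6.37% of sgRNAs in ITPK1-KO and 10.7% in ITPK1-WT cells. The log2 differences of the 24 non-targeting sgRNAs ran from -0.17 to 0.10 in ITPK1-KO cells. All Cyld sgRNAs lay above that range and all Spata2 sgRNAs within it. In ITPK1-WT cells the non-targeting sgRNAs ran from -0.21 to 0.16, with 9 of 24 called. Of the members only Spata2-sg-2 lay above that range, so the ITPK1-WT values of the Cyld sgRNAs were within that of the controls. The ITPK1-WT calls did not remain with the sample sheet as a covariate (Cyld-sg-1 at 0.15). In that fit the IgA effect rests on mouse 5 alone, so it does not settle whether the calls depend on the sheet. Spata2-sg-2 also lost its call without mouse 7 (0.16, edgeR adjusted p = 0.0634), and Spata2-sg-3 gained one in ITPK1-WT cells without mouse 4 (0.17, edgeR adjusted p = 0.0389). Spata2-sg-3 was also called there with the DESeq2 Wald test and with scaling to the non-targeting sgRNAs. The Cyld-sg-1 call in ITPK1-KO cells held in all 16 alternatives.

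**Figure D2:**
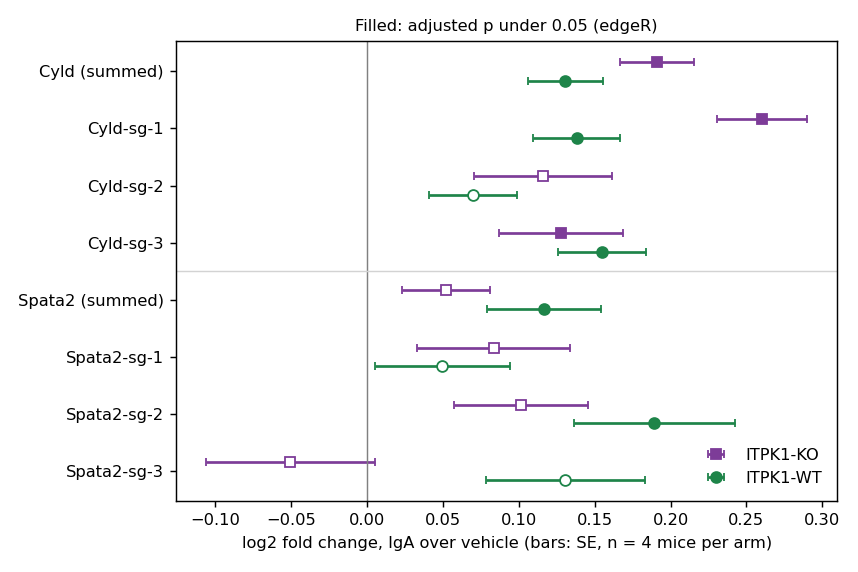
Log2 fold change, IgA over vehicle, of each gene (3 sgRNAs summed) and each sgRNA, with squares for ITPK1-KO and circles for ITPK1-WT cells; bars are SE from 4 mice per arm and filled symbols have an edgeR adjusted p under 0.05. Cyld-sg-1 in ITPK1-KO cells lies furthest to the right at 0.26, and Spata2-sg-3 in ITPK1-KO cells is the only value left of 0.

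In the authors' deposited table, MAGeCK gave the Cyld sgRNAs log2 fold changes of 0.28, 0.14 and 0.13 in ITPK1-KO and 0.23, 0.15 and 0.22 in ITPK1-WT cells. The authors' deposited table has Cyld-sg-1 in ITPK1-KO cells at an FDR of 3.30e-05, rank 2 of 252 by p, and no other member below 0.05 in either background. It lists 12 of 252 sgRNAs below that FDR in ITPK1-KO cells and 0 of 252 in ITPK1-WT cells, where the edgeR test called 70.

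Whether the sgRNAs of 1 gene differ among themselves was tested within each library, which removes the scaling. The log2 ratios of all 12 within-gene pairs, 6 per background, were compared between arms by an exact two-sided permutation test over the 70 splits of 8 mice. This comparison was chosen after the data were seen. The lowest raw p was 0.0286, the smallest this design can give, for Cyld-sg-1 to Cyld-sg-2 (0.069) and Cyld-sg-2 to Cyld-sg-3 (-0.084) in ITPK1-WT cells. After adjustment over the 12 pairs, the lowest exact permutation p was 0.171. With this smallest p, a few differing pairs could not have passed over 12 tests, so the test does not settle whether the sgRNAs of a gene differ.

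The same test asked whether Cyld and Spata2 moved by different amounts. In ITPK1-KO cells the log2 ratio of Cyld to Spata2 reads was 0.80 ± 0.052 under IgA and 0.66 ± 0.050 under vehicle (SD, n = 4 each), and the arms did not overlap. The difference was 0.14 (SE 0.036, exact two-sided permutation p = 0.0286, the smallest possible, 0.0571 after adjustment over 2 backgrounds). In ITPK1-WT cells the ratio was 0.58 ± 0.040 under IgA and 0.57 ± 0.078 under vehicle, a difference of 0.013 (SE 0.044, exact p = 0.771). With 1 background at the smallest p and the other not, the adjusted p cannot fall below 0.0571. The threshold could be passed only with both backgrounds at the smallest p, and the ITPK1-WT p was above it.

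Neither gene's IgA effect was shown to depend on ITPK1. The difference of the effects, ITPK1-KO minus ITPK1-WT, was 0.054 for Cyld (SE 0.035) and -0.070 for Spata2 (SE 0.048) on the log2 scale, each with an edgeR adjusted p of 0.534. That test called 0 of the 2 genes, against 6.58% of all genes, and 0 of the 6 sgRNAs, against 3.97% of all sgRNAs. At an unadjusted edgeR p under 0.05, 2 of the 6 sgRNAs passed, beside 29 of all 252 sgRNAs. They were Cyld-sg-1 with a difference of 0.12 (adjusted p = 0.194) and Spata2-sg-3 with -0.19 (adjusted p = 0.250). With the mouse as a replicate block the differences were 0.053 for Cyld and -0.069 for Spata2, each with an adjusted p of 0.502.

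Spata2 sgRNAs were at a lower level in the ITPK1-KO library of a mouse than in its ITPK1-WT library, in both arms. For this all 16 recovered libraries were scaled together. In IgA mice 5 to 8 the log2 ratios of ITPK1-KO to ITPK1-WT were -0.23, -0.20, -0.29 and -0.25, and in vehicle mice 1 to 4 they were -0.10, -0.14, -0.19 and -0.26. All 8 mice thus had less Spata2 in the ITPK1-KO library. The fitted difference was -0.24 under IgA (SE 0.027, edgeR adjusted p = 9.26e-08) and -0.17 under vehicle (SE 0.040, adjusted p = 8.43e-05). The lower share stood in the same direction before injection, as the shares above show.

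For Cyld the values between backgrounds were closer to 0. Its log2 ratios of ITPK1-KO to ITPK1-WT were -0.06, 0.01, -0.01 and -0.04 in IgA mice 5 to 8, and -0.06, -0.06, -0.11 and -0.08 in vehicle mice 1 to 4. The difference was -0.024 under IgA (SE 0.031, edgeR adjusted p = 0.423), with 3 of 4 mice lower in ITPK1-KO, and -0.079 under vehicle (SE 0.015, adjusted p = 0.00789), with 4 of 4 lower. The vehicle call was lost without mouse 3 (-0.068, adjusted p = 0.0537) and without Cyld-sg-1 (-0.034, adjusted p = 0.482), and ran from 0.00180 to 0.482 in adjusted p over the 20 alternatives. These gene calls stand beside 44.7% of all genes called between backgrounds under IgA and 47.4% under vehicle, so a difference between the backgrounds was common in the library.

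Among the sgRNAs, Spata2-sg-3 differed most. Its log2 ratios of ITPK1-KO to ITPK1-WT were -0.30, -0.42, -0.56 and -0.57 in IgA mice 5 to 8, and -0.16, -0.24, -0.32 and -0.38 in vehicle mice 1 to 4. The fitted differences were -0.46 under IgA (SE 0.060, edgeR adjusted p = 5.25e-12) and -0.27 under vehicle (SE 0.047, adjusted p = 4.89e-05). Before injection its share was 0.164% in ITPK1-KO cells (95% Wilson interval 0.154 to 0.176) and 0.202% in ITPK1-WT cells (0.190 to 0.214). The intervals did not overlap, but they cover counting error only and each pool had 1 starting library. Whether the 2 pools differed in this sgRNA at the start was therefore not tested.

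Under IgA 4 of 6 member sgRNAs were called between backgrounds, where 34.9% of all sgRNAs were: Cyld-sg-3 (-0.12), Spata2-sg-1 (-0.14), Spata2-sg-2 (-0.16) and Spata2-sg-3. Under vehicle 3 of 6 were called, where 31.7% were: Cyld-sg-1 (-0.13), Spata2-sg-1 (-0.17) and Spata2-sg-3. Every called member was lower in ITPK1-KO cells, as were 46 of the 88 called sgRNAs of the library under IgA and 45 of the 80 under vehicle. Under IgA the call of Spata2-sg-3 held with each mouse left out, whereas without mouse 5 those of Cyld-sg-3 (-0.097, adjusted p = 0.134), Spata2-sg-1 (-0.14, adjusted p = 0.0569) and Spata2-sg-2 (-0.14, adjusted p = 0.0930) were lost. Cyld-sg-3 was also lost without mouse 6 or mouse 8, and Spata2-sg-2 without mouse 7. Cyld-sg-2 had positive values in both arms, 0.081 under IgA (adjusted p = 0.272) and 0.041 under vehicle (adjusted p = 0.606), and did not pass.

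**Figure D3:**
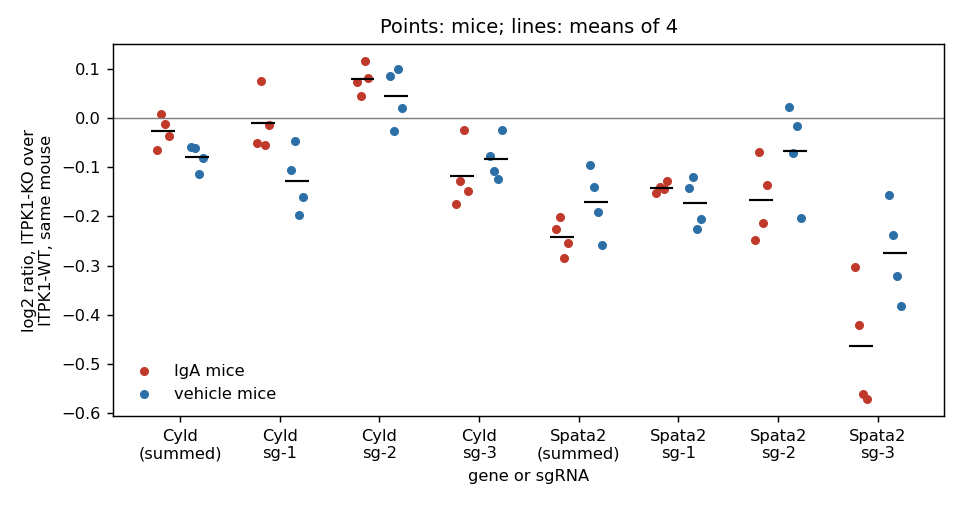
Log2 ratio of ITPK1-KO to ITPK1-WT CPM in the same mouse, for each gene (3 sgRNAs summed) and sgRNA, with IgA mice left of vehicle mice; points are mice and lines are means of 4. All Spata2 and Spata2-sg-3 points lie below 0, down to -0.57 for Spata2-sg-3, whereas Cyld points lie between -0.11 and 0.01.

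Relative to the cells before injection, Cyld with its sgRNAs summed stood higher under IgA in both backgrounds. Under vehicle this sum stood lower in ITPK1-KO and higher in ITPK1-WT cells. The change is the log2 ratio of read shares after subtraction of the median non-targeting sgRNA, with 1 starting library per background and hence no test. Cyld changed by 0.11 ± 0.050 under IgA and -0.089 ± 0.036 under vehicle in ITPK1-KO cells, and by 0.27 ± 0.064 under IgA and 0.083 ± 0.025 under vehicle in ITPK1-WT cells (SD, n = 4). The Cyld sgRNAs were not alike in ITPK1-KO cells. Under IgA Cyld-sg-1 changed by 0.17 and Cyld-sg-2 by 0.16, but Cyld-sg-3 by -0.031 ± 0.084. Under vehicle Cyld-sg-1 changed by -0.10 and Cyld-sg-3 by -0.16, but Cyld-sg-2 by 0.049 ± 0.068. In ITPK1-WT cells the mean change of every Cyld sgRNA was positive in both arms. Spata2 changed by -0.011 ± 0.025 under IgA and -0.071 ± 0.050 under vehicle in ITPK1-KO cells. In ITPK1-WT cells it changed by 0.19 ± 0.056 under IgA and 0.0086 ± 0.054 under vehicle. The vehicle libraries and the starting libraries were on different inferred sample sheets.

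The scaling bears on these values, since the non-targeting sgRNAs themselves shifted. Their median log2 difference between IgA and vehicle was -0.012 in ITPK1-KO cells, with 1 of 24 called, and -0.059 in ITPK1-WT cells, with 9 of 24 called and 8 of those lower under IgA. Scaled to them in place of TMM, Cyld differed by 0.21 in ITPK1-KO and 0.18 in ITPK1-WT cells, and Spata2 by 0.067 and 0.17. The directions and calls of both genes were the same under either scaling.

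Among the other genes of TNF receptor signalling, Ripk1 was the only one called in ITPK1-KO cells, and in ITPK1-WT cells calls went in both directions. Of 46 genes on lists of ubiquitin editing, the TNF receptor and its kinases, the death output of RIPK1 complexes and NF-kB, the library targets 14: 3 of 16, 3 of 14, 8 of 10 and 0 of 6. The lists were written with earlier results of these data known. Cyld and Spata2 are counted among the 14. In ITPK1-KO cells 1 of the 14 rose (Cyld), 1 fell (Ripk1) and 12 did not pass, with a median log2 difference of 0.015 against 0.0071 over all 76 genes, of which 10 (13.2%) were called. In ITPK1-WT cells 4 rose, 3 fell and 7 did not pass, with a median of -0.012 against -0.0033 over all genes, of which 28 (36.8%) were called, 16 higher and 12 lower. Of the LUBAC subunits and other deubiquitinases on the list none is targeted, so Birc2, a ubiquitin ligase of the receptor complex, is the other listed ubiquitin-editing gene that was measured. It had -0.018 in ITPK1-KO (adjusted p = 0.579) and -0.045 in ITPK1-WT cells (adjusted p = 0.0721).

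Ripk1, the kinase whose ubiquitin chains CYLD trims, had the opposite sign to Cyld. In ITPK1-KO cells it had 10867, 10782, 11283 and 10842 CPM in IgA mice 5 to 8, against 13525, 13086, 12480 and 13194 in vehicle mice 1 to 4. In the ITPK1-WT libraries Ripk1 had 12009, 11287, 11275 and 11307 in IgA mice, against 11983, 11871, 12160 and 12176 in vehicle mice. The arms did not overlap in ITPK1-KO cells, and in ITPK1-WT cells mouse 5 lay within the vehicle range. Ripk1 fell by 0.26 on the log2 scale in ITPK1-KO cells (SE 0.028, edgeR adjusted p = 5.35e-08), the lowest of 76 genes, and by 0.072 in ITPK1-WT cells (SE 0.024, adjusted p = 0.0116). The difference of its effects was -0.19 (SE 0.038, adjusted p = 5.86e-06). In ITPK1-WT cells the call was lost with scaling to the non-targeting sgRNAs (-0.020, adjusted p = 0.492), with the sample sheet as a covariate (-0.0044, adjusted p = 0.944) and without mouse 7 (-0.065, adjusted p = 0.0528).

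Downstream of RIPK1, Fadd, the adaptor that recruits caspase-8, fell by 0.14 in ITPK1-WT cells (SE 0.019, edgeR adjusted p = 0.000309) and had -0.038 in ITPK1-KO cells (adjusted p = 0.460). Zbp1, a nucleic acid sensor that engages RIPK3, fell by 0.083 in ITPK1-WT cells (SE 0.016, adjusted p = 0.000798) and had 0.013 in ITPK1-KO cells (adjusted p = 0.657), with a difference of effects of 0.090 (adjusted p = 0.0155). Ripk3, the kinase of necroptosis, rose by 0.082 in ITPK1-WT cells (adjusted p = 0.0123) and had 0.058 in ITPK1-KO cells (adjusted p = 0.138). Tnfrsf1a, the main TNF receptor, rose by 0.061 in ITPK1-WT cells (adjusted p = 0.0280) and had 0.058 in ITPK1-KO cells (adjusted p = 0.123). Casp8, the caspase of the death receptor complex, and Mlkl, the pore-forming effector of necroptosis, did not pass in either background. Casp8 had -0.0039 in ITPK1-KO and -0.032 in ITPK1-WT cells, and Mlkl had 0.013 in ITPK1-KO and -0.0063 in ITPK1-WT cells. The Fadd call held in every alternative run. In ITPK1-WT cells Ripk3 lost its call without mouse 7 (0.073) or mouse 8 (0.068), Tnfrsf1a without any of mice 2, 4, 5 and 7 (0.049 to 0.060), and Zbp1 with scaling to the non-targeting sgRNAs (-0.031). With the sample sheet as a covariate the ITPK1-WT calls of Ripk3 (0.076, adjusted p = 0.210), Tnfrsf1a (0.066, adjusted p = 0.206) and Zbp1 (-0.084, adjusted p = 0.0557) were lost, and limma on mean log2 values did not call Tnfrsf1a (adjusted p = 0.0639). The difference of effects of Zbp1 lost its call without any of mice 2, 3, 4, 5 and 8 (0.072 to 0.089). It was also lost with scaling to the non-targeting sgRNAs and by limma on mean log2 values, and the lowest value of any alternative was 0.059.

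**Figure D4:**
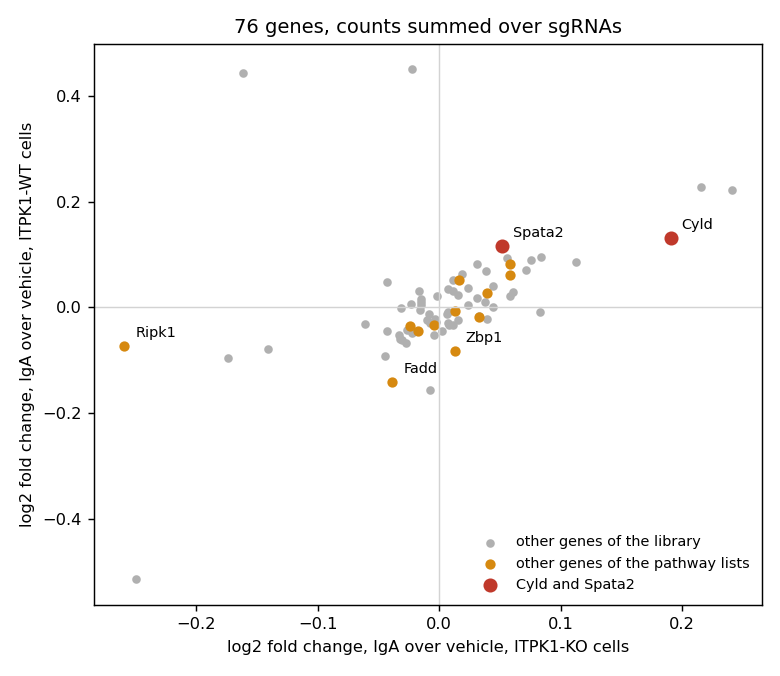
Log2 fold change, IgA over vehicle, of the 76 genes (counts summed over sgRNAs) in ITPK1-KO cells on the horizontal axis and in ITPK1-WT cells on the vertical axis; red points are Cyld and Spata2, orange points the other genes of the pathway lists, grey points all others. Cyld lies right of and above 0 at 0.19 and 0.13, Spata2 at 0.052 and 0.12, and Ripk1 furthest left at -0.26 in ITPK1-KO cells.

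The genes whose levels followed Cyld most closely over the 16 recovered libraries, each background centred on its mean, were Hspbap1 (Pearson r 0.925), Kcnip1 (0.872) and 4732429D16Rik (0.811). For Spata2 they were Tnfrsf10b (0.779), 4732429D16Rik (0.748) and Ltbr (0.723). The correlation of Cyld with Spata2 was 0.623, rank 14 of 75 for Cyld and rank 11 of 75 for Spata2. Centred on each arm as well, it was 0.091. That centring left Cyld at 0.288 with Hspbap1, 0.635 with Kcnip1 and 0.225 with 4732429D16Rik, and Spata2 at 0.826 with Tnfrsf10b, 0.543 with 4732429D16Rik and 0.367 with Ltbr. All 16 libraries share 2 transduced pools and the arms differ in cells sorted, so these correlations are a description.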

How the data were processed

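Libraries of sgRNA cassettes from genomic DNA of 16 recovered and 2 starting samples were analysed. The deposited counts are whole reads per sgRNA, matched to the library without mismatches per the series' design text, and the labels name MAGeCK (version 0.5.6 in the design text). The authors deposited MAGeCK tables with a log2 fold change and a p-value with FDR per sgRNA. Arm, cells sorted and sgRNA sequences are other units in the authors' deposited tables. The same tables hold 4 columns of joined per-sample values that were not used. No aligner or build was given in the sources used here.

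The members and lists were chosen with earlier results of these data known. Counts were summed per gene, also kept per sgRNA (mean of at least 10 reads), scaled by TMM from sgRNA counts and tested in R 4.3.3 with edgeR 4.0.16 (glmQLFit, glmQLFTest), Benjamini-Hochberg adjusted, threshold 0.05. Each background was fitted alone, and comparisons between backgrounds used 1 fit of 16 libraries. Single ratios had exact two-sided permutation tests. Change from the start added 0.5 reads. Named genes were the members, Ripk1, Fadd, Casp8, Tnfrsf1a, Ripk3, Mlkl, called members of the lists (at most 10 by p) and the 3 closest genes of each member. Both libraries of a mouse come from 1 animal, so mouse numbers pair them. Over 238 sgRNAs their deviations correlated at -0.084 to 0.258. No libraries of a group were duplicates by a chi-square comparison of counts. Alternatives were DESeq2 1.42.0, limma 3.58.1 on mean log2 values, other scalings and filters, the sample sheet, a joint fit, the replicate block, and each mouse or sgRNA left out. The fits were tested on simulated data.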

Additional observations from a re-analysis of the deposited data

How the results depend on the processing

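No called value changed direction. Over 20 alternatives Cyld stayed called under IgA in both backgrounds (log2 0.12 to 0.22 in ITPK1-KO, highest adjusted p 0.0382, and 0.12 to 0.18 in ITPK1-WT, highest adjusted p 0.0443), and Spata2 stayed uncalled in ITPK1-KO cells (adjusted p 0.123 to 0.685). Spata2 in ITPK1-WT cells lost its call with the sample sheet as covariate (0.11), without Spata2-sg-2 (0.086) or Spata2-sg-3 (0.11), and without mouse 7 (0.094 to 0.15 with each mouse left out). With the sheet as covariate the genes called under IgA numbered 5 in ITPK1-KO and 10 in ITPK1-WT cells, and the sgRNAs 15 and 17. Leaving out each mouse gave 17 to 32 genes and 45 to 94 sgRNAs in ITPK1-WT cells (fewest without mouse 7), and 8 to 17 sgRNAs for the difference of the IgA effects (most without mouse 6). Between backgrounds under vehicle, Cyld was not called by limma on mean log2 values (-0.055, adjusted p 0.0851), without Cyld-sg-1 (-0.034) or without mouse 3 (-0.087 to -0.068). Under IgA it was called only with scaling to the non-targeting sgRNAs (-0.066, adjusted p 0.0478). Change from before injection under IgA in ITPK1-WT cells, not set against the non-targeting sgRNAs, was 0.20 for Cyld and 0.12 for Spata2, an alternative chosen after seeing the data. The cause was not tested in any of these.

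The replicate block, the paired fit over mice, gave 0.053 for Cyld and -0.069 for Spata2 in the difference of the IgA effects (adjusted p 0.502 each), -0.078 and -0.17 between backgrounds under vehicle and -0.025 and -0.24 under IgA. It changed no call of either gene. With 4 mice per arm no exact permutation p can fall below 0.0286. As the ITPK1-WT p was above this, the adjusted p of the ratio of Cyld to Spata2 in ITPK1-KO cells could not pass. That adjusted p thus carries no information on the stability of the ratio. The log2 difference of that ratio in ITPK1-KO cells ran from 0.12 to 0.15 with each mouse left out. In 6 of 8 IgA libraries fewer cells were sorted than in the vehicle libraries, and the part of this in the results was not tested.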
